A study of Felis catus with 6 samples.

Results

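G protein coupled receptors, the G proteins they act through and the proteins that tune that signal were followed in the oral mucosa of cats with feline chronic gingivostomatitis (FCGS), a lasting ulcerative inflammation of the mouth. The set held 46 genes of 1930 that could be given a name and of 21529 identifiers in the files. Its members were chosen by symbol, from families of receptors, G protein subunits, adenylyl cyclases and RGS proteins, among genes that the study listed as at least 2-fold different between lesions and healthy mucosa. The members were therefore selected on the same contrast that is described here, and their differences between the tissues are given as a description with no test of the set. HTRA1 and HTRA3 are secreted serine proteases that share only the first letters of their symbols with the serotonin receptors. They are kept as members by the rule and described last, which leaves 44 genes of G protein signalling.

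These receptors cross the cell membrane and, when a ligand binds outside, switch on a G protein inside the cell, made of an alpha subunit and a paired beta and gamma subunit. The released subunits act on effectors such as the adenylyl cyclases, which make cyclic AMP. RGS proteins end the signal by speeding up the shut-off of alpha subunits, and receptor kinases silence the receptor itself. In mucosa, receptors of this class guide leukocytes, set the tone and leakiness of vessels, and sense injury at the epithelial surface.

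RNA was measured in 6 libraries from 3 cats, which the labels name Bart, Jerome and Sadie. Each cat gave 1 biopsy of a lesion, labelled diseased and inflammatory, and 1 of adjacent mucosa labelled healthy and normal, so the controls came from cats that had the disease. The labels call the tissue gingival, while the study's methods place the biopsies beside the palatoglossal folds, and the read layout also differs between labels and methods. The study's FCGS cats were toothless and received buprenorphine against pain, without immunosuppressive drugs or antibiotics, and no strain, age or other treatment is given for the libraries. Values are FPKM, sequenced fragments per unit of transcript length and per library size, which allows levels of different genes to be compared per length. FPKM summed to 1382122 to 1903773 per library. The study's methods give only an approximate number of reads per sample. Exact read numbers per library are not held in the FPKM, so the reads behind each value are unknown. Each group had n = 3 cats.

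The biopsies were mixtures of cells, and their makeup differed between libraries. The named skeletal muscle markers (15 of 19 on the list) summed to 155, 5333 and 4788 FPKM in the lesions of Bart, Jerome and Sadie and to 31.3, 41.9 and 2443 in their healthy mucosa. Without TPM2, which smooth muscle also expresses and which was set aside after the data were seen, the other 14 summed to 6.63, 4967 and 4418 FPKM in lesions and to 8.17, 23.9 and 2265 in healthy mucosa, so both libraries of Bart were the lowest. Of 20 epithelial markers only KRT4, a keratin of the oral surface, had a name. It was at 8.99, 2534 and 569 FPKM in the lesions of Bart, Jerome and Sadie. In healthy mucosa KRT4 was at 2089 FPKM in Bart and was listed at 0 in Jerome and Sadie, so Bart went the opposite way to the other cats. The libraries of Bart are set against those of the other 2 cats at the end, and counts are also given with each cat left out. The same contrast was not made for Jerome or Sadie, so Bart is not shown to be the most distinct cat.

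Of the 46 members, 38 were higher and 8 were lower in lesions than in healthy mucosa, and 44 had the same sign in all 3 cats. For differences, values below 1 FPKM were raised to 1 before log2 was taken. The exceptions were ADCY2, slightly lower in the lesion of Sadie, and HTR1B, above 1 FPKM in 1 library only. The median log2 difference was 1.73 over the higher members and -1.41 over the lower ones, against -0.07 over all 13327 identifiers tested. Those identifiers were not chosen by the study's 2-fold limit. Among the 1930 named identifiers, which were chosen by it, 1292 were tested and higher in lesions, so most of them were higher too. Of all identifiers tested, 63.2% had the same sign in all 3 cats. HTR1B did not reach the filter of 1 FPKM in 3 libraries, and P2RY12 reached it through its lesions alone, which leaves 45 members tested.

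In 34 of the 45 members tested, no lesion overlapped a healthy library, with 26 higher and 8 lower in lesions. The same held for 38.6% of all identifiers tested (16.7% higher, 21.9% lower). Leaving out a cat in turn gave 36 to 43 members, the most without Bart. This count can only stay or rise when libraries are removed, and no share over all identifiers was taken for it. A difference of at least 2-fold in every cat was present in 25 higher and 4 lower members, against 15.6% of all identifiers (8.81% higher, 6.81% lower). By limma with tissue as the only term, 18 members had an adjusted p under 0.05, of which 15 were higher and 3 lower, against 11.9% of all identifiers (5.31% higher, 6.61% lower). With the cat as a block the count was 29 higher and 6 lower, against 23.2% (12.2% higher, 11.1% lower). Because the members were picked on this contrast, these shares stand beside the counts only. In bulk tissue, fewer cells of a type and less RNA per cell cannot be told apart, and this applies to every difference that follows. The SE printed with log2 differences come from the fit with tissue as the only term, which leaves out the pairing by cat.

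**Figure D1:**
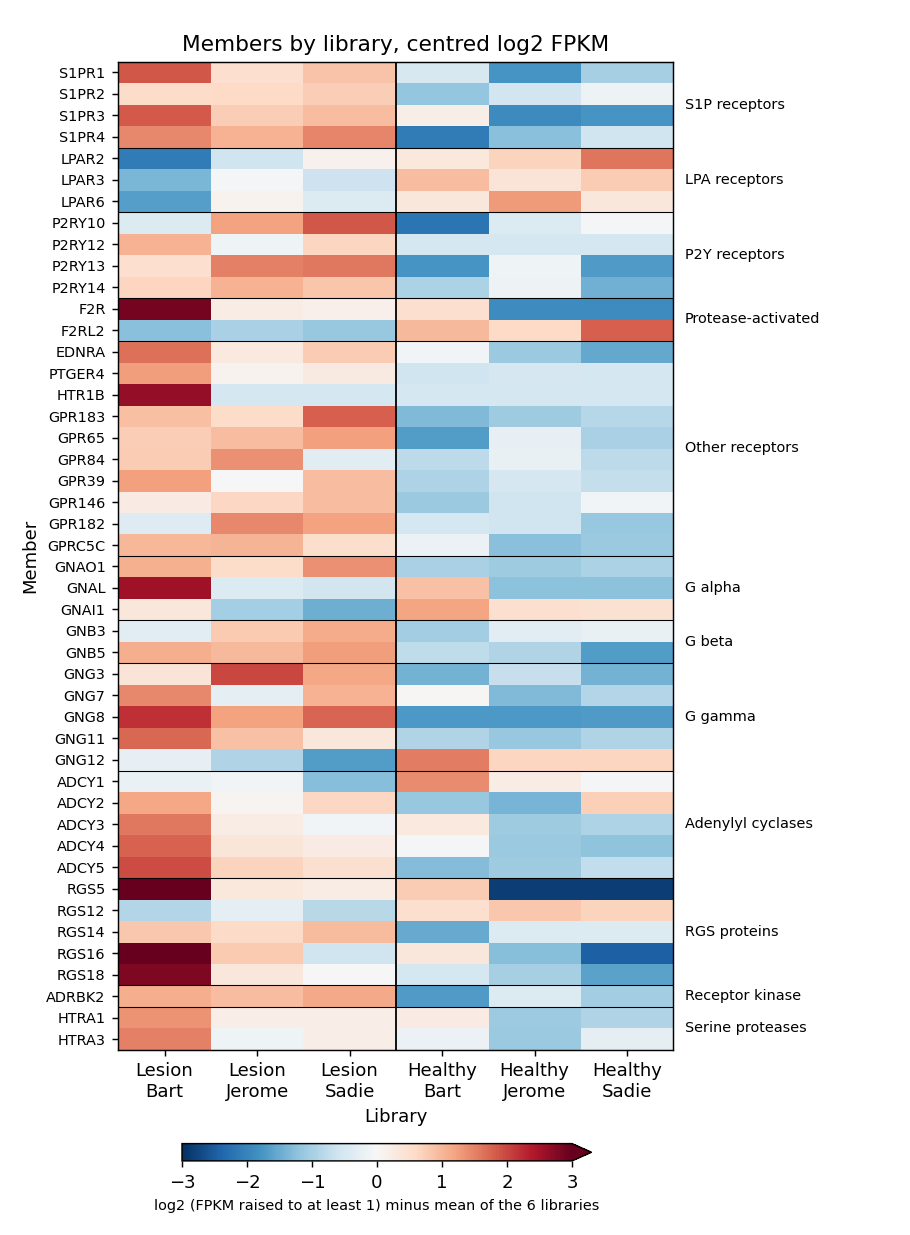
Each line is a member, grouped by role, and each column a library, with lesions on the left and healthy mucosa on the right. Colour gives log2 FPKM, with values raised to at least 1, minus the mean of the member's 6 libraries, and the colour scale ends at 3, which RGS5 and RGS16 exceeded in the lesion of Bart. Most members are redder in the lesion columns, and the lesion of Bart is the highest library for 21 of the 46.

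In the set, receptors for sphingosine 1-phosphate and for lysophosphatidic acid differed in direction. The 4 sphingosine 1-phosphate receptors of the set were higher in every lesion than in any healthy library, and its 3 lysophosphatidic acid receptors were lower. Receptors of these families that the study did not list carry no name here, so their levels are not given. S1PR1, which draws lymphocytes out of tissue and tightens endothelium, was at 136, 53.4 and 68.4 FPKM in the lesions of Bart, Jerome and Sadie and at 27.1, 11.0 and 18.9 in their healthy mucosa, a log2 difference of 2.15 (SE 0.47). The lowest lesion, that of Jerome, was well above the highest healthy library, that of Bart, and Bart was the highest and Jerome the lowest in both tissues. S1PR4, a receptor mostly of blood and lymphoid cells, was at 24.5, 18.7 and 24.9 FPKM in lesions and at 2.12, 3.82 and 5.94 in healthy mucosa (log2 difference 2.63, SE 0.41). Its lesions lay close together, and its difference was the largest of the 4.

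S1PR3, found on vessel walls, was at 29.8, 13.8 and 15.7 FPKM in lesions and at 9.41, 2.20 and 2.45 in healthy mucosa (log2 difference 2.33, SE 0.64). Bart was above the other 2 cats in both tissues. S1PR2, which opposes cell migration, was at 10.3, 10.7 and 11.8 FPKM in lesions and at 3.19, 4.76 and 6.41 in healthy mucosa, the smallest difference of the 4 (1.25, SE 0.31). Summed, the 4 receptors reached 200.3, 96.6 and 121 FPKM in lesions and 41.8, 21.8 and 33.7 in healthy mucosa. S1PR1 made up 55.3% to 67.7% of that sum in lesions and 50.5% to 64.8% in healthy mucosa, so its share overlapped between the tissues while the sum did not.

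LPAR6, the most abundant lysophosphatidic acid receptor of the set and one linked to hair growth, was at 10.9, 36.3 and 25.6 FPKM in lesions and at 43.0, 82.9 and 43.0 in healthy mucosa (log2 difference -1.31, SE 0.51). LPAR2 was at 1.06, 3.02 and 4.94 FPKM in lesions and at 5.65, 7.19 and 13.7 in healthy mucosa (-1.72, SE 0.65). LPAR3 was at 1.27, 3.17 and 2.14 FPKM in lesions and at 6.28, 4.31 and 5.66 in healthy mucosa (-1.38, SE 0.40). The lesion of Bart was the lowest of the 6 libraries for all 3 genes. The ratio of S1PR1 to LPAR6 within a library, which no scaling of the library can change, was 12.5, 1.47 and 2.67 in lesions and 0.630, 0.133 and 0.439 in healthy mucosa. S1PR1 was thus above LPAR6 in every lesion and below it in every healthy library.

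**Figure D2:**
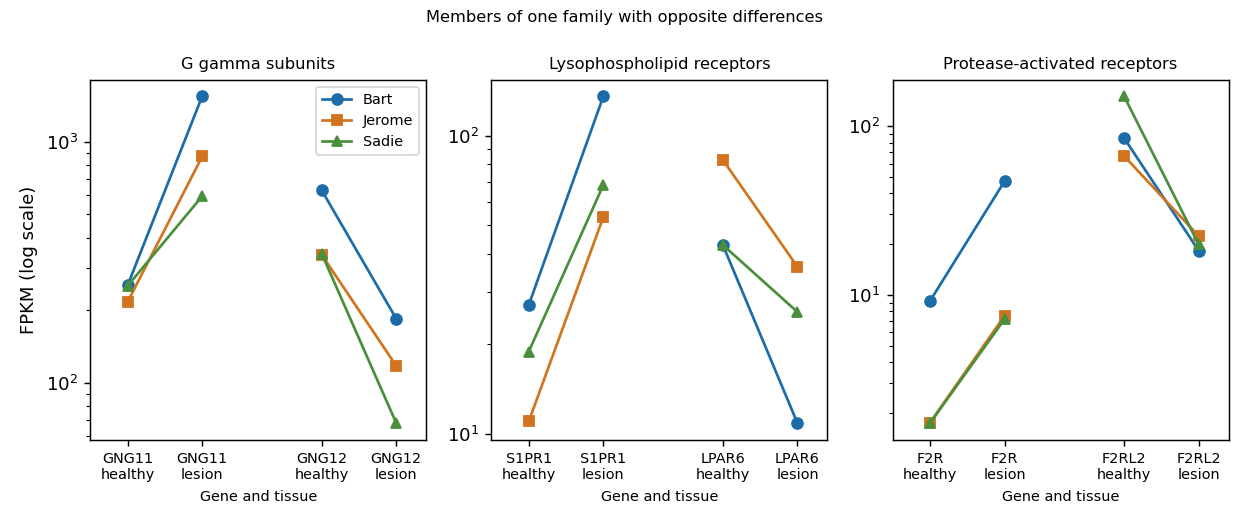
FPKM on a log axis for 3 pairs of related genes, with both biopsies of a cat joined by a line (blue circles Bart, orange squares Jerome, green triangles Sadie). In each pair the gene on the left is higher in the lesion of every cat and the gene on the right is lower in the lesion of every cat.

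Among P2Y receptors, all 4 members were higher in lesions. P2RY13, an ADP receptor of immune cells, was at 4.85, 9.78 and 10.3 FPKM in lesions and at 0.517, 3.12 and 1.04 in healthy mucosa (log2 difference 2.41, SE 0.56). P2RY14, a receptor for UDP-glucose, was at 6.84, 9.08 and 7.84 FPKM in lesions and at 2.27, 3.96 and 1.61 in healthy mucosa (1.69, SE 0.38). P2RY12, the ADP receptor of platelets, was low throughout, at 2.97, 1.31 and 2.23 FPKM in lesions and at 0.0743, 0.317 and 0.603 in healthy mucosa. All its healthy values were below the floor of 1 FPKM, so its difference of 1.04 depends on that floor, and it was the smallest of any member.

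P2RY10, a lymphocyte receptor for lysophosphatidylserine, was at 3.43, 10.5 and 16.5 FPKM in lesions and at 0.791, 3.43 and 4.40 in healthy mucosa (log2 difference 1.76, SE 0.79). The lesion of Bart overlapped the healthy mucosa of the other cats, although within each cat the lesion was higher by 1.61 to 1.90 on the log2 scale. P2RY12 and P2RY13 are next to each other on chromosome C2 of the reference assembly F.catus_Fca126_mat1.0. The order of P2RY12 over the lesions, highest in Bart, was not that of P2RY13, which was lowest in Bart.

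The 2 protease-activated receptors of the set, which thrombin and other proteases switch on by cutting their outer end, went opposite ways. F2R, a thrombin receptor of vessel walls, was at 47.3, 7.53 and 7.20 FPKM in lesions and at 9.20, 1.75 and 1.74 in healthy mucosa (log2 difference 2.17, SE 0.99). The healthy mucosa of Bart lay above the lesions of Jerome and Sadie, yet within each cat the difference was 2.36, 2.11 and 2.05. F2RL2, a thrombin-cleaved receptor that mainly assists others, was at 18.3, 22.3 and 20.0 FPKM in lesions and at 85.2, 66.7 and 151 in healthy mucosa (-2.24, SE 0.33). The 3 lesions differed little from each other, and every healthy library was far above them. The ratio of F2R to F2RL2 was 2.58, 0.337 and 0.360 in lesions and 0.108, 0.0262 and 0.0115 in healthy mucosa. These genes are adjacent on chromosome A1 of the same assembly.

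The other 10 receptors were all higher in lesions, 8 of them without overlap, with a median log2 difference of 1.47. GPR183, which steers B cells along oxysterol gradients, was at 34.4, 26.9 and 63.6 FPKM in lesions and at 7.32, 8.70 and 10.2 in healthy mucosa (log2 difference 2.17, SE 0.36). Sadie had the highest value in both tissues. GPR65, an acid sensor of leukocytes, was at 5.40, 6.11 and 7.59 FPKM in lesions and at 0.408, 2.72 and 1.63 in healthy mucosa (1.94, SE 0.41). The lesions were alike, and the spread lay among the healthy libraries.

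EDNRA, the endothelin receptor of smooth muscle, was at 28.5, 11.0 and 15.3 FPKM in lesions and at 8.53, 4.14 and 3.11 in healthy mucosa (log2 difference 1.82, SE 0.51). GPRC5C, a receptor whose ligand is not known, was at 17.5, 17.6 and 12.7 FPKM in lesions and at 7.80, 3.68 and 4.02 in healthy mucosa (1.70, SE 0.36). Neither gene overlapped between the tissues, and for both the healthy mucosa of Bart was the highest of the healthy libraries. GPR182, a receptor of lymphatic and sinusoidal endothelium that takes up chemokines, was at 1.68, 5.96 and 5.09 FPKM in lesions and at 1.51, 1.46 and 0.507 in healthy mucosa. Its log2 difference was 0.15 in Bart against 2.03 and 2.35 in Jerome and Sadie, the least even among the receptors measured in every cat.

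GPR84, a receptor of myeloid cells for medium-chain fatty acids, overlapped between the tissues. It was at 2.94, 4.45 and 1.40 FPKM in lesions and at 0.208, 1.48 and 0.122 in healthy mucosa, with the lesion of Sadie below the healthy mucosa of Jerome (log2 difference 1.21, SE 0.47). HTR1B, a serotonin receptor, was at 8.94 FPKM in the lesion of Bart and at 0.169 and 0.261 in the other lesions, with 0.0657, 0 and 0.142 in healthy mucosa. It was at 1 FPKM or above only in that 1 library, its match to an identifier also rests on that value, and it was not tested. PTGER4, a prostaglandin E2 receptor that raises cyclic AMP, the zinc-sensing GPR39 and the orphan receptor GPR146 had log2 differences of 1.08, 1.44 and 1.20 without overlap. The PTGER4 values in healthy mucosa lay within 5.91 to 6.28 FPKM, and the lesion of Bart (21.3) stood above the other lesions (9.51 and 10.6).

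**Figure D3:**
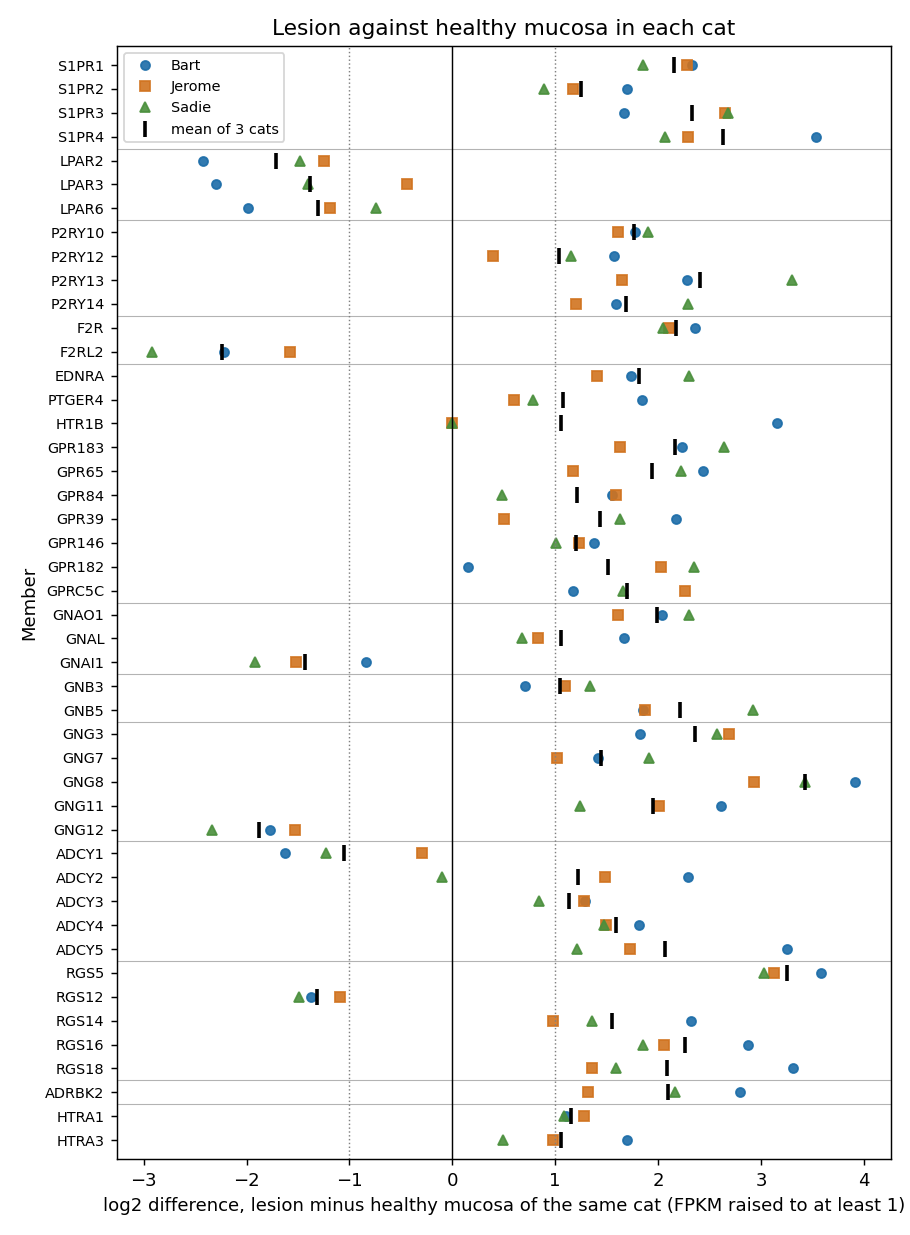
Log2 difference of each member between the 2 biopsies of a cat, lesion minus healthy (blue circles Bart, orange squares Jerome, green triangles Sadie), with the mean of the 3 cats as a black bar and dotted lines at a 2-fold difference. The 8 lower members lie left of 0 in every cat, ADCY2 crosses 0 in Sadie only, and HTR1B is at 0 in Jerome and Sadie because both of its values were below the floor.

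G protein subunits also differed in kind. Among alpha subunits, GNAO1, a form best known from nerve and endocrine cells, was at 14.7, 10.3 and 18.1 FPKM in lesions and at 3.56, 3.36 and 3.66 in healthy mucosa (log2 difference 1.99, SE 0.28). GNAI1, which inhibits adenylyl cyclase, was at 6.18, 2.44 and 1.77 FPKM in lesions and at 11.1, 7.01 and 6.71 in healthy mucosa (-1.43, SE 0.52). GNAO1 was nearly equal in the 3 healthy libraries, and GNAI1 was highest in Bart in both tissues. The ratio of GNAO1 to GNAI1 was 2.37, 4.22 and 10.2 in lesions and 0.322, 0.479 and 0.544 in healthy mucosa, above 1 in every lesion and below 1 in every healthy library. GNAL, the alpha subunit of smell receptors, was at 13.7, 1.78 and 1.60 FPKM in lesions and at 4.33, 0.939 and 0.685 in healthy mucosa. The healthy mucosa of Bart exceeded the lesions of the other 2 cats. The log2 difference of GNAL was 1.06, with an SE of 1.02, or of 0.29 with the cat as a block.

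Of the beta subunits, GNB5, a divergent form that pairs with certain RGS proteins, was at 6.76, 6.26 and 7.58 FPKM in lesions and at 1.87, 1.71 and 0.352 in healthy mucosa (log2 difference 2.22, SE 0.32). Its 3 lesions were within a narrow range. GNB3 was at 10.7, 23.2 and 29.1 FPKM in lesions and at 6.57, 10.9 and 11.5 in healthy mucosa (1.05, SE 0.44), and the lesion of Bart overlapped the healthy libraries. Its 3 highest libraries were the lesions of Jerome and Sadie and the healthy mucosa of Sadie, which are also the 3 libraries with the most skeletal muscle RNA. The same 3 libraries were the highest for P2RY10, and for no other member. The part of muscle in these values was not tested.

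The gamma subunits held the most abundant member and the clearest exchange. GNG11, a gamma subunit with a farnesyl anchor, was at 1549.8, 871 and 596 FPKM in lesions and at 254, 216 and 252 in healthy mucosa, or 1006 ± 491 against 241 ± 21.2 (mean ± SD, n = 3; log2 difference 1.95, SE 0.36). GNG12, a widely expressed gamma subunit, was at 184, 117 and 67.9 FPKM in lesions and at 630.0, 339.8 and 344 in healthy mucosa, or 123 ± 58.4 against 438 ± 166 (-1.88, SE 0.43). Bart had the highest value of both genes in both tissues. The ratio of GNG11 to GNG12 was 8.41, 7.42 and 8.77 in lesions and 0.403, 0.637 and 0.734 in healthy mucosa. In lesions this ratio varied less among the cats than either gene alone, and its geometric mean was 8.18 in lesions and 0.573 in healthy mucosa. Of the FPKM of the 5 gamma members, GNG11 made up 82.7% to 85.8% in lesions and 28.1% to 41.5% in healthy mucosa, and GNG12 made up 9.43% to 11.5% and 56.6% to 69.7%.

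The remaining gamma subunits were less abundant and higher in lesions. GNG8 was at 15.1, 7.61 and 11.0 FPKM in lesions, was listed at 0 in the healthy mucosa of Bart and Jerome, and was at 1.02 in that of Sadie. GNG3, a gamma subunit of neurons, was at 3.53, 10.7 and 5.96 FPKM in lesions, was listed at 0 in the healthy mucosa of Bart and Sadie, and was at 1.65 in that of Jerome. Neither overlapped between the tissues, and their log2 differences of 3.43 and 2.36 (SE 0.31 and 0.47) are set by the floor of 1 FPKM. GNG7 was at 52.8, 15.7 and 39.8 FPKM in lesions and at 19.8, 7.77 and 10.6 in healthy mucosa (1.45, SE 0.56), and the lesion of Jerome lay below the healthy mucosa of Bart.

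Of the 5 adenylyl cyclases in the set, 4 were higher in lesions and ADCY1 was lower. ADCY4, the most abundant of them, was at 86.5, 33.1 and 30.5 FPKM in lesions and at 24.6, 11.8 and 11.0 in healthy mucosa (log2 difference 1.59, SE 0.52). ADCY5, an enzyme of heart and brain, was at 14.5, 5.92 and 5.21 FPKM in lesions and at 1.53, 1.78 and 2.25 in healthy mucosa (2.06, SE 0.45). Both kept the tissues apart, and in lesions Bart was well above the other 2 cats. ADCY4 made up 63.1% to 67.4% of the summed FPKM of the 5 cyclases in lesions and 42.4% to 58.5% in healthy mucosa.

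ADCY3, the cyclase of smell neurons, was at 14.8, 5.80 and 4.66 FPKM in lesions and at 6.06, 2.39 and 2.61 in healthy mucosa (log2 difference 1.14, SE 0.58), with the healthy mucosa of Bart above the lesions of the other cats. ADCY2, which released beta and gamma subunits stimulate, was at 9.87, 4.70 and 6.79 FPKM in lesions and at 2.02, 1.69 and 7.26 in healthy mucosa (1.22, SE 0.63). Its difference was 2.29, 1.48 and -0.10 in Bart, Jerome and Sadie, so the 2 biopsies of Sadie were close to equal. ADCY1, a cyclase stimulated by calcium, was at 2.52, 2.76 and 1.19 FPKM in lesions and at 7.81, 3.39 and 2.79 in healthy mucosa (-1.05, SE 0.52). The lesion of Jerome was barely below the healthy mucosa of Sadie, and ADCY1 with P2RY12 and GNB3 had the 3 smallest differences, 2.06-fold to 2.07-fold, just inside the limit of the study's list. Genes just outside that limit carry no name here.

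Of the 5 RGS proteins in the set, which shorten the signal, 4 were higher in lesions. RGS5, a marker of pericytes, was at 144, 8.76 and 8.17 FPKM in lesions and at 12.0, 0.211 and 0.847 in healthy mucosa (log2 difference 3.25, SE 1.48). RGS16, which inflammation and T cell activation induce, was at 313, 58.8 and 22.5 FPKM in lesions and at 42.8, 14.1 and 6.22 in healthy mucosa (2.26, SE 1.12). The healthy mucosa of Bart lay above the lesions of both other cats for RGS5 and above that of Sadie for RGS16, while the difference within each cat was 3.59, 3.13 and 3.03 for RGS5 and 2.87, 2.06 and 1.85 for RGS16. RGS18, a protein of platelets and blood-forming cells, was at 48.1, 8.87 and 6.92 FPKM in lesions and at 4.83, 3.46 and 2.30 in healthy mucosa without overlap (2.09, SE 0.78).

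RGS14, a scaffold that also holds alpha subunits, was at 25.8, 21.7 and 28.1 FPKM in lesions and at 5.17, 11.0 and 11.0 in healthy mucosa (log2 difference 1.55, SE 0.35). RGS12, the other large scaffold of the family, was at 8.77, 13.3 and 9.08 FPKM in lesions and at 22.8, 28.3 and 25.5 in healthy mucosa (-1.32, SE 0.24). These 2 genes, which share several domains, thus stood in opposite directions, each without overlap. RGS12 made up 26.0% to 55.6% of the summed FPKM of the 5 RGS members in healthy mucosa and 1.62% to 12.1% in lesions. ADRBK2, also called GRK3, a kinase that silences active receptors, was at 13.8, 12.2 and 14.1 FPKM in lesions and at 1.98, 4.88 and 3.15 in healthy mucosa (2.09, SE 0.37).

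The serine proteases were both higher in lesions. HTRA1 was at 679, 307 and 306 FPKM in lesions and at 316, 126 and 144 in healthy mucosa (log2 difference 1.16, SE 0.48), and the healthy mucosa of Bart lay just above the lesions of the other cats. HTRA3 was at 51.2, 16.3 and 20.4 FPKM in lesions and at 15.8, 8.28 and 14.5 in healthy mucosa (1.06, SE 0.50). Within each cat HTRA1 differed by 1.08 to 1.28 and HTRA3 by 0.49 to 1.70.

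The rule for members used the means of the tissues, so how the cats differed within a tissue entered it only through those means. The lesion of Bart held the highest value of 21 of the 46 members, that of Sadie of 12 and that of Jerome of 5. Over all identifiers tested, the highest value was in the lesion of Bart, Jerome or Sadie in 24.0%, 8.85% and 14.2%, and in their healthy mucosa in 18.8%, 11.7% and 22.5%. Among the 1292 named identifiers higher in lesions, it was in the lesion of Bart in 53.9%, next to 21 of the 38 higher members. The lesion of Bart was at least 2-fold above the mean of the other lesions in 19 members and 2-fold below in 8 (15.1% and 12.0% of all identifiers). The healthy mucosa of Bart was 2-fold above the mean of that of the other cats in 12 members and 2-fold below in 4 (11.8% and 10.0% of all).

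In 10 members (21.7%) Bart was at least 2-fold above the mean log2 value of the other 2 cats in both tissues, against 6.65% of all identifiers. For this count and those in each tissue, no share was taken over the named identifiers, which passed the same 2-fold limit. An excess over all identifiers is therefore not shown to be particular to the members. The 10 members were RGS5, RGS16, GNAL, F2R, ADCY3, ADCY4, HTRA1, EDNRA, GNG7 and S1PR3. For 7 of them, RGS5, RGS16, GNAL, F2R, ADCY3, HTRA1 and GNG7, the healthy mucosa of Bart exceeded at least 1 lesion of another cat while each cat differed in the same direction. Conversely, the lesion of Bart was the lowest of the lesions in 9 of the higher members, namely S1PR2, P2RY10, P2RY13, P2RY14, GPR65, GPR146, GPR182, GNB3 and GNG3. P2RY10 was the only member at least 2-fold below that mean of the other 2 cats in both tissues (4.79% of all identifiers).

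**Figure D4:**
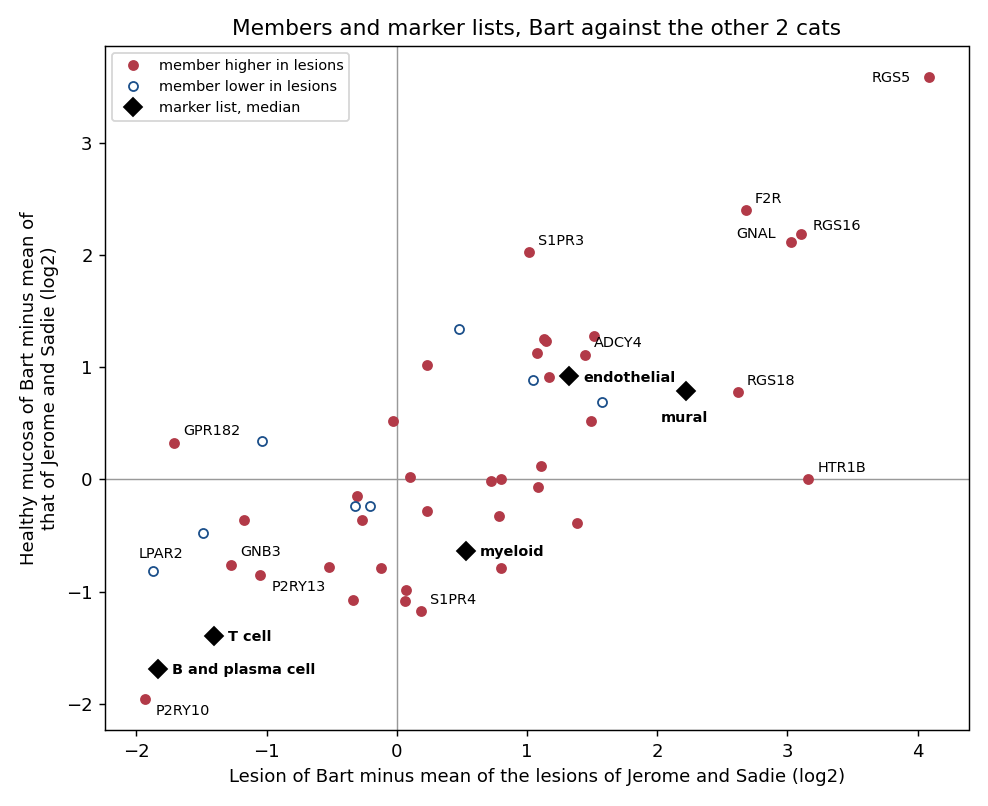
Each point is a member, placed by the log2 value of Bart minus the mean of Jerome and Sadie in lesions (horizontal) and in healthy mucosa (vertical), with filled red points for members higher in lesions, open blue points for members lower in lesions, and black diamonds for the median of a marker list. RGS5, RGS16, GNAL and F2R lie far to the upper right on the side of the endothelial and mural lists, and P2RY10 lies at the lower left beside the T cell and the B and plasma cell lists.

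Cell type markers also differed between the tissues and between Bart and the other 2 cats. The 10 named endothelial markers of 13 summed to 884 to 2128 FPKM in lesions and to 215 to 472 in healthy mucosa, and the lesion of Bart was the highest for 10 of 10. The 6 named markers of mural cells, the pericytes and smooth muscle around vessels, of 11 summed to 575 to 2496 FPKM in lesions and to 135 to 320 in healthy mucosa, with Bart again highest for 6 of 6. In the T cell list (10 named of 13) the sums were 251 to 707 FPKM in lesions and 69.3 to 194 in healthy mucosa, and the lesion of Bart was the lowest of the lesions for 9 of 10. For B cell and plasma cell markers (8 of 11) they were 436 to 2677 and 32.7 to 290, with Bart lowest for 8 of 8. Myeloid markers (8 of 11) summed to 833 to 1541 FPKM in lesions and to 198 to 436 in healthy mucosa. For these 8, the lesion of Bart was the highest of the lesions in 5 and the lowest in 2. Their median log2 value of Bart minus the mean of the other 2 cats was 0.53 in lesions and -0.64 in healthy mucosa. LUM, the 1 fibroblast marker of 9 with a name, ranged from 135 to 400.3 FPKM in lesions and from 35.7 to 107 in healthy mucosa, highest in Bart in both tissues. None of these markers was listed at 0 in any library, and all had higher means in lesions. Names exist only for genes that the study listed as at least 2-fold different, so marker genes that differed less are not counted. The part of vessel, leukocyte and muscle content in the members' values was not tested.

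Genes next to the members in the pathway were taken from 3 lists, and those with a name had also been chosen by the study's 2-fold limit, so their counts, like those of the members, are a description. The share of all identifiers tested with an adjusted p under 0.05 in limma was 5.31% higher and 6.61% lower, and 12.2% and 11.1% with the cat as a block. Of genes that make, release or clear the ligands, 14 of 46 had a name, and 2 were higher and 1 lower with an adjusted p under 0.05 in limma (8 and 2 with the cat as a block). ENPP2, the enzyme autotaxin that makes lysophosphatidic acid, was at 18.7, 11.6 and 9.48 FPKM in lesions and at 3.85, 4.56 and 4.08 in healthy mucosa (log2 difference 1.61, limma adjusted p = 0.0317). It was higher in lesions, whereas the 3 receptors for its product in the set were lower. SPHK1, which makes sphingosine 1-phosphate, was at 24.2, 23.6 and 15.2 FPKM in lesions and at 34.7, 60.5 and 61.0 in healthy mucosa (-1.29, limma adjusted p = 0.0511), while the receptors for its product in the set were higher. MFSD2B, an exporter of sphingosine 1-phosphate, and ECE2, an endothelin-converting enzyme, were low in all libraries, with log2 differences of 1.05 and -1.19. MFSD2B, 1 of the 2 higher genes, reached the filter through its lesions alone, at 1.83 to 2.40 FPKM, and its difference depends on the floor.

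Of other G protein coupled receptors, 13 of 67 had a name, and 4 were higher and none lower with an adjusted p under 0.05 in limma (8 and 1 with the block). At an unadjusted p under 0.05 the same fit held 9 of them, in either direction, against 4213 of all 13327 identifiers tested. TBXA2R, the thromboxane receptor, was at 22.4, 22.4 and 18.0 FPKM in lesions and at 3.57, 4.10 and 4.93 in healthy mucosa (log2 difference 2.32, limma adjusted p = 0.0189). PTAFR, CMKLR1 and CNR2, receptors for platelet-activating factor, chemerin and cannabinoids, had log2 differences of 2.08, 1.45 and 1.44 and did not overlap between the tissues. CNR2 reached the filter through its lesions alone, at 2.25 to 3.49 FPKM against 0.320 to 0.768 in healthy mucosa, so its difference depends on the floor and its place among the 4 on the filter. Of effectors and desensitizing proteins, 18 of 67 had a name, with 9 higher and 3 lower (12 and 4 with the block). PREX1, a Rac activator that beta and gamma subunits switch on, was at 45.9, 36.0 and 35.6 FPKM in lesions and at 7.27, 11.7 and 6.85 in healthy mucosa (2.22, limma adjusted p = 0.0198). GPSM2, which binds alpha subunits and orients the spindle of dividing cells, was at 6.51, 6.35 and 4.21 FPKM in lesions and at 29.5, 22.6 and 28.0 in healthy mucosa (-2.25, limma adjusted p = 0.0189). PLCD1 and PLCB3, phospholipases C, were lower in every lesion than in any healthy library, with log2 differences of -2.35 and -1.54. The lists had median log2 differences of 1.07, 1.27 and 1.56 over their named genes, with -0.07 over all identifiers tested.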

How the data were processed

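Biopsies of FCGS lesions and of healthy mucosa from 3 cats were sequenced as 6 libraries, paired by cat as the labels state. The authors deposited FPKM, made with bcl2fastq, HISAT, Cufflinks and Cuffnorm per the submitters' processing notes; tool versions are not given there, and the sources used here name no genome build. Cuffnorm scales for transcript length and library size, so no count model was used.

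The files carry identifiers without symbols. Each of 1981 symbols of the study's supplementary list was matched to an identifier by its tissue values, raised to at least 1 FPKM, to 5 significant digits. Each found exactly 1 identifier, and with the tissues exchanged there was no match. A name needed 3 values above the floor, which named 1930 identifiers including HTR1B, kept by the symbol rule on 1 value. GNAI2 was left out by that rule. Lesion and healthy values in the list were used only for matching.

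The floor of 1 FPKM was also applied before log2. Identifiers that reached 1 FPKM in 3 or more libraries, 13327, entered a two-sided test in limma 3.58.1 (R 4.3.3, mean-variance trend, Benjamini-Hochberg adjustment), with tissue as the only term. The cat as a block, other offsets, no filter, quantile normalization, median centring, and each library or cat left out were alternatives. As a check of the pairing, each library was set against its tissue mean. Across identifiers, these deviations had a correlation within a cat of 0.49 (Bart), 0.20 (Jerome) and 0.41 (Sadie), and of -0.44 to 0.27 between cats. The 0.27 was between the lesion of Jerome and the healthy mucosa of Sadie, so the check did not single out the pair of Jerome. Deviations from a mean cancel out over the 3 cats, which lowers the values between cats in advance. Without the block, p-values set the difference against the spread of libraries within a tissue, with the 6 libraries treated as independent. With the block they use the spread of the difference among these 3 cats. Both also draw on the spread over all identifiers tested. Simulated data with known differences were used to test the limma step. Other steps ran in Python 3.11.15 with numpy 2.4.6, matplotlib 3.10.9 and pandas 2.3.3. Gene order came from a RefSeq table of F.catus_Fca126_mat1.0, which held 45 of the 46 members.

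The members and gene lists were chosen with earlier results of these data known. All members are named. Library values are given for up to 4 members of each role with the largest difference and for members whose tissues overlapped, and of each pathway list the 4 genes with the smallest p are named. Values for further members were added.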

Additional observations from a re-analysis of the deposited data

How the results depend on the processing

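None of the 45 members tested changed direction under any alternative. This was largely set in advance, since members were chosen on this contrast and nearly all had the same sign in every cat. The block and the lack of a filter also leave the log2 difference itself unchanged. Over members and settings, 503 comparisons kept their side of the threshold, 33 gained it and 139 lost it. With the cat as a block, which follows the pairing in the labels, the members with an adjusted p under 0.05 numbered 35 (18 without it), all identifiers 3098 (1588), ligand supply genes 10 (3) and other receptors 9 (4), while effectors numbered 16 (12). Marker counts with the block were 10 endothelial (4), 5 mural (1), 10 T cell (1), 8 B and plasma cell (3) and 7 myeloid (5). With no filter on low values the counts were 4 members, 526 identifiers, 1 ligand supply gene and 5 effectors (12), and with FPKM plus 0.1 ligand supply genes numbered 1. Leaving out 1 library or 1 cat gave 0 to 24 members, 0 to 2136 identifiers, 0 to 5 ligand supply genes, 0 to 7 other receptors and 0 to 11 effectors. The count of members was 0 without the lesion of Sadie, without the healthy mucosa of Sadie, without the cat Jerome and without the cat Sadie (limma, with 29, 25, 23 and 22 members at an unadjusted p under 0.05), 2 without the healthy mucosa of Jerome, 8 without the lesion of Jerome, 9 without the healthy mucosa of Bart, 15 without the lesion of Bart and 24 without the cat Bart. Over all 13327 identifiers tested, the counts in the same order were 1, 9, 0, 0, 132, 655, 898, 1435 and 2136. In the first 4 of these settings, 3276, 3260, 2436 and 2139 identifiers had an unadjusted p under 0.05 in limma. The cause of these changes was not tested, beyond the smaller number of samples. Members without overlap numbered 34 under quantile normalization and under median centring, the latter added after the data were seen, as was leaving out each cat (36 to 43). The count with a cat left out cannot fall, since libraries are only removed. The ratio of GNG11 to GNG12 stayed within 7.90 to 8.59 in lesions and 0.507 to 0.684 in healthy mucosa with each cat left out. Without the lesion of Bart, also added later, the median log2 difference went from 1.88 to 1.46 for endothelial and from 1.82 to 1.13 for mural markers, and from 1.50 to 2.04 for T cell markers. With 3 cats and no exact read numbers per library, low FPKM values such as those of P2RY12, GNG3, GNG8 and HTR1B have unknown precision.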
